A study of Mus musculus with 8 samples.

Results

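Hba-a1, Hbq1a and Alas2 are genes of the red cell, and their level was measured in hypothalamus RNA of mice that gained much or little weight on a high-fat diet. They were chosen by the deposited intensities themselves: a lower alpha globin value in high gainers had been seen in these arrays, and the other genes were taken up to see whether they shared it. They are 3 of the 13840 genes that a probe with a single gene annotation names on the array, and 4 of 14411 such probes. Hba-a1 and Alas2 have 1 probe each, and Hbq1a has 2, of which 1 holds no value on any of the 8 arrays.

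High gainers and low gainers were male mice of the inbred strain C57BL/6J, kept on the same schedule of 6 weeks of high-fat diet, 2 weeks of low-fat diet and another 6 weeks of high-fat diet, and sorted by how much weight they had gained. The hypothalamus RNA of 20 mice went into 1 pool a group, and each pool was put on 4 one-colour chemiluminescent arrays, high gainer arrays 1 to 4 and low gainer arrays 1 to 4. The arrays of a group are repeats of 1 pool, so that every spread and p-value below measures the array work and holds nothing about differences between mice. In a pool of bulk tissue RNA, fewer cells of a type and less RNA in each cell cannot be told apart.

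Low gainer array 2 stood apart from the other arrays. Over the 5375 probes measured on all 8 arrays its log2 intensities correlated with those of any other array at 0.227 to 0.241, while the other 7 arrays correlated with each other at 0.949 to 0.990. Its values are therefore given by themselves, and the comparison used the 7 other arrays and the 11169 probes with a value on each of them. Between 13657 and 16873 of the 33012 probes held a value on an array, with array medians of 0.714 to 1.05 intensity units. Transcripts of hypothalamic peptides were measured on all 7 arrays, among them somatostatin (Sst, 19.8 to 28.0), orexin (Hcrt, 1.20 to 2.56), vasopressin (Avp, 0.802 to 1.61) and neuropeptide Y (Npy, 1.38 to 3.32).

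Haemoglobin, the oxygen carrier of red cells, is built of alpha-type and beta-type globin chains, each holding a haem group. Red cell precursors make globin chains and haem in step, and the young red cells that enter the blood have lost their nucleus but still carry globin mRNA. A dissected piece of brain holds whatever blood is left in its vessels, and some neurons and glia have also been reported to contain globin transcripts. Hba-a1 encodes the alpha chain of adult haemoglobin. Hbq1a encodes theta globin, a little-used relative in the same cluster. Alas2 encodes the erythroid 5-aminolevulinate synthase, the enzyme that opens haem synthesis in red cell precursors.

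The promoters of the 3 genes are shown because genes of the red cell programme often share short elements there, namely GATA sites, read by the erythroid factor GATA1, and CACCC boxes, read by KLF1. Each sequence holds the 250 bases before the transcription start as RefSeq gives it on GRCm38.p6. All 3 lie on the plus strand, Hba-a1 at chr11:32283422-32283671, Hbq1a at chr11:32299819-32300068 and Alas2 at chrX:150547167-150547416. Capitals mark matches to the motifs named after the sequences.
Hba-a1: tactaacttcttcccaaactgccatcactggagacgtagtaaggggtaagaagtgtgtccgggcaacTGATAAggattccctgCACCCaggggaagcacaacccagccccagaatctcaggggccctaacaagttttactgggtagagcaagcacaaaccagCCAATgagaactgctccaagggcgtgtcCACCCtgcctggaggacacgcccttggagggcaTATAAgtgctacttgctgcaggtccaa
Hbq1a: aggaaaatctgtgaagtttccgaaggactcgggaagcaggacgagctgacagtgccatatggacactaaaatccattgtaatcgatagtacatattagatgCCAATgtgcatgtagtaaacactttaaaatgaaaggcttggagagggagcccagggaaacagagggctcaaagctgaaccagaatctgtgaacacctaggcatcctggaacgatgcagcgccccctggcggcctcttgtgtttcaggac
Alas2: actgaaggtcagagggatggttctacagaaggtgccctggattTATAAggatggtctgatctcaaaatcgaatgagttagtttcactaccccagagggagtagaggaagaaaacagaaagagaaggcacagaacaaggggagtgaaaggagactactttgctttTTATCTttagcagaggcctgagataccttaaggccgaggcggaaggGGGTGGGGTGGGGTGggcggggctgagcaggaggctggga

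A GATA-type motif (AGATAA, or the same with T first, G last or both, on either strand) was found once in Hba-a1, 183 bases before the start, and once in Alas2, on the reverse strand 86 bases before the start, and it occurs in 26.5% of 32851 promoters of the same length. CACCC, searched on both strands, was found at 167 and 60 bases before the start of Hba-a1 and on the reverse strand at 40, 35 and 30 bases before that of Alas2, against 52.0% of all promoters with at least 1 match. CCAAT on either strand, held by 33.8% of promoters, stood 88 bases before the start of Hba-a1 and 149 bases before that of Hbq1a. TATAA on the forward strand, held by 16.0% of promoters, stood 27 bases before the start of Hba-a1 and 207 bases before that of Alas2. Hbq1a thus held CCAAT alone of these motifs. A match describes the letters and not a bound site.

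On chromosome 11, RefSeq places the alpha-type genes in the order Hba-x, Hba-a1, Hbq1b, Hba-a2 and Hbq1a, in which Hba-a1 and Hba-a2, as well as Hbq1a and Hbq1b, are near copies. The promoter of Hba-a1 was identical to that of Hba-a2 over all 247 aligned bases, and that of Hbq1a matched Hbq1b at 239 of 250 aligned bases (95.6%). Hba-a1 and Hbq1a, in contrast, matched at 82 of 126 aligned bases (65.1%). Probe sequences were not used here, so transcripts of these copies cannot be told apart in the values of Hba-a1 and Hbq1a.

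The alpha chain gene gave the widest gap of the 3. Hba-a1 had intensities of 8.11, 13.9, 11.9 and 13.1 on high gainer arrays 1 to 4, against 17.0, 35.8 and 27.9 on low gainer arrays 1, 3 and 4. All 4 high gainer values lay below all 3 low gainer values, and the smallest gap was between high gainer array 2 and low gainer array 1. The means were 11.8 ± 2.58 in high gainers (SD, n = 4 arrays) and 26.9 ± 9.47 in low gainers (SD, n = 3 arrays). After quantile normalization of the log2 values over the 7 arrays, the difference of high gainers minus low gainers was -1.14 on the log2 scale, or 0.455 times the low gainer level. Of all probes compared, 0.0269% had a lower difference. These values chose the gene and are given as a description, with no test.

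The arrays of the low gainer pool spread widely around this gap. Low gainer array 3 read 2.11-fold above low gainer array 1, although both held the same RNA, and high gainer array 2 read 1.72-fold above high gainer array 1. The SD of the log2 values was 0.35 in high gainers and 0.52 in low gainers, and 82.7% and 80.7% of all probes had a smaller SD in these groups. Low gainer array 2 read 12.5, inside the range of the high gainer arrays. As its log2 intensities correlated with those of any other array at only 0.227 to 0.241, little can be read from this value. With that array in the comparison, which left the probes present on all 8 arrays, the difference was -0.93.

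Theta globin also showed a gap. Hbq1a had intensities of 0.474, 0.417, 0.737 and 0.353 on high gainer arrays 1 to 4, against 0.847, 0.963 and 0.885 on low gainer arrays 1, 3 and 4, with no value on low gainer array 2. The groups did not overlap, and here it was the high gainer pool whose arrays varied, 2.08-fold between array 3 and array 4, against 1.14-fold among the low gainer arrays. The means were 0.495 ± 0.168 in high gainers (SD, n = 4 arrays) and 0.899 ± 0.0593 in low gainers (SD, n = 3 arrays), with a log2 difference of -0.95, or 0.518 times the low gainer level. A lower difference was seen in 0.197% of all probes. For scale, the 10th percentile of all values was 0.186 and the array medians were 0.714 to 1.05. Hbq1a was thus dim as well: high gainer arrays 1, 2 and 4 read under every array median, and the low gainer arrays read within that range.

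Alas2 showed no such gap, though its intensities were low, under every array median (0.714 to 1.05). It had intensities of 0.361, 0.475, 0.436 and 0.493 on high gainer arrays 1 to 4, against 0.614, 0.426 and 0.380 on low gainer arrays 1, 3 and 4, and 0.559 on low gainer array 2. The groups overlapped: in 6 of 12 pairings of a high gainer with a low gainer array the high gainer array was the lower, and low gainer array 4 read below 3 of the 4 high gainer arrays. The means were 0.441 ± 0.0585 in high gainers (SD, n = 4 arrays) and 0.474 ± 0.124 in low gainers (SD, n = 3 arrays), with a log2 difference of -0.16 and 26.3% of all probes lower. The sign rested on low gainer array 1: without it the difference was 0.02. With low gainer array 2 included, which stood apart from all other arrays, the difference was -0.38. The groups of Hba-a1 and Hbq1a thus did not overlap, with high gainers below low gainers, and those of Alas2 did. Over all 11169 probes, 273 (2.44%) did not overlap with high gainers lower and 222 (1.99%) with high gainers higher, but nothing is read from this for genes chosen by the same values.

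**Figure D1:**
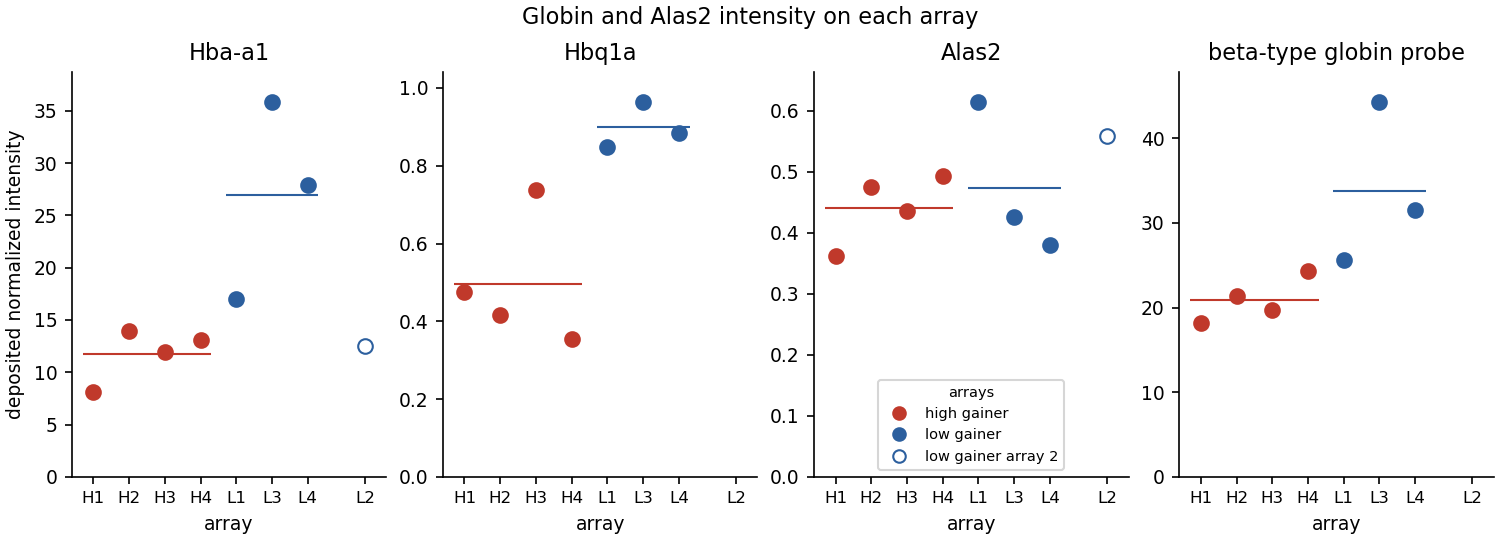
Deposited intensity (linear axis from 0) of Hba-a1, Hbq1a, Alas2 and the probe for beta-type globins on each array, with high gainer arrays left and low gainer arrays right. Points are arrays, lines are the means of high gainer arrays 1 to 4 and of low gainer arrays 1, 3 and 4, and the open point is low gainer array 2, which has a value for Hba-a1 (12.5) and Alas2 (0.559) only. The groups are apart in every panel but that of Alas2.

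Beta chains are the partners of alpha chains in haemoglobin, and 1 bright probe of the array is annotated to several beta-type globin genes, so it names no single gene and is not one of the 3. It read 18.1, 21.4, 19.7 and 24.3 on high gainer arrays 1 to 4, against 25.6, 44.3 and 31.5 on low gainer arrays 1, 3 and 4, with no value on low gainer array 2. The groups did not overlap, although high gainer array 4 came close to low gainer array 1. The means were 20.9 ± 2.65 in high gainers (SD, n = 4 arrays) and 33.8 ± 9.54 in low gainers (SD, n = 3 arrays). The log2 difference was -0.63 (SE 0.17), with adjusted p = 0.750 by limma. The probe was among 64 probes (0.573%) lower in high gainers at an unadjusted limma p below 0.01 and at least 1.5-fold, but not among the 10 that met these limits by the methods' t-test, in which its p was above 0.01, and it did not pass after adjustment over all probes.

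Globins of the embryo and of other tissues added little. Hba-x, the embryonic alpha-type globin, read 0.133 and 0.209 on the 2 high gainer arrays where it was measured, against 0.115, 0.170 and 0.0908 on low gainer arrays 1, 3 and 4, mostly under 0.186. Hbb-y, an embryonic beta-type globin, had values of 0.257, 0.645 and 0.197 on 3 high gainer arrays, against 0.327 and 0.159 on 2 low gainer arrays. Hbb-bh1, another embryonic beta-type globin, was measured on low gainer array 1 only, at 0.572. In a fit that admitted probes present on at least 2 arrays of each group, the log2 difference was 0.24 (95% confidence interval -0.64 to 1.13) for Hba-x and 0.30 (95% confidence interval -0.79 to 1.39) for Hbb-y, both with adjusted p = 0.975 by limma. Ngb, neuroglobin of neurons, averaged 0.514 ± 0.0829 in high gainers and 0.508 ± 0.253 in low gainers, with a log2 difference of 0.12 (adjusted p = 0.968, limma), and Mb, myoglobin of muscle, had no value on any array.

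The differences of the 3 genes were then set against each other on each array, as log2 ratios taken relative to their mean over the 7 arrays. The ratio of Hba-a1 to Hbq1a differed by -0.19 between high gainers and low gainers, and the groups overlapped. The ratio of Hba-a1 to Alas2 differed by -0.97, with values of -0.67 to -0.15 in high gainers, against -0.40, 0.91 and 1.16 on low gainer arrays 1, 3 and 4. Here low gainer array 1 fell among the high gainer arrays, as its Hba-a1 was the lowest and its Alas2 the highest of the 3 low gainer arrays. The ratio of Hba-a1 to the beta-type globin probe differed by -0.51, with -0.55 to -0.00 in high gainers and 0.04 to 0.47 in low gainers, so that the alpha gap was the wider on these arrays.

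Deviations of the arrays from the mean of their own pool hold no difference between pools, and they show whether the genes moved together from array to array. Hba-a1 and the beta-type globin probe deviated together, with a Pearson r of 0.91 and a Spearman rho of 0.89 over the 7 arrays. Low gainer array 1 and high gainer array 1 were the lowest of their pools for both. Without these, the arrays farthest from the median of Hba-a1, r was 0.75 over 5 arrays, and without low gainer array 1 alone it was 0.77. Among all probes, 1.21% had a higher r with Hba-a1.

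Hbq1a and Alas2 did not follow. Hba-a1 and Hbq1a had an r of -0.02 and a rho of -0.14, the low gainer arrays being nearly level for Hbq1a where Hba-a1 varied most. Hba-a1 and Alas2 had an r of -0.23 and a rho of -0.32, which rested on single arrays: r was -0.76 without high gainer array 1 and 0.74 without low gainer array 1. Hbq1a and Alas2 had an r of -0.16 and a rho of -0.32. The 7 arrays share 2 pools of RNA, and these correlations are descriptions without a test.

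**Figure D2:**
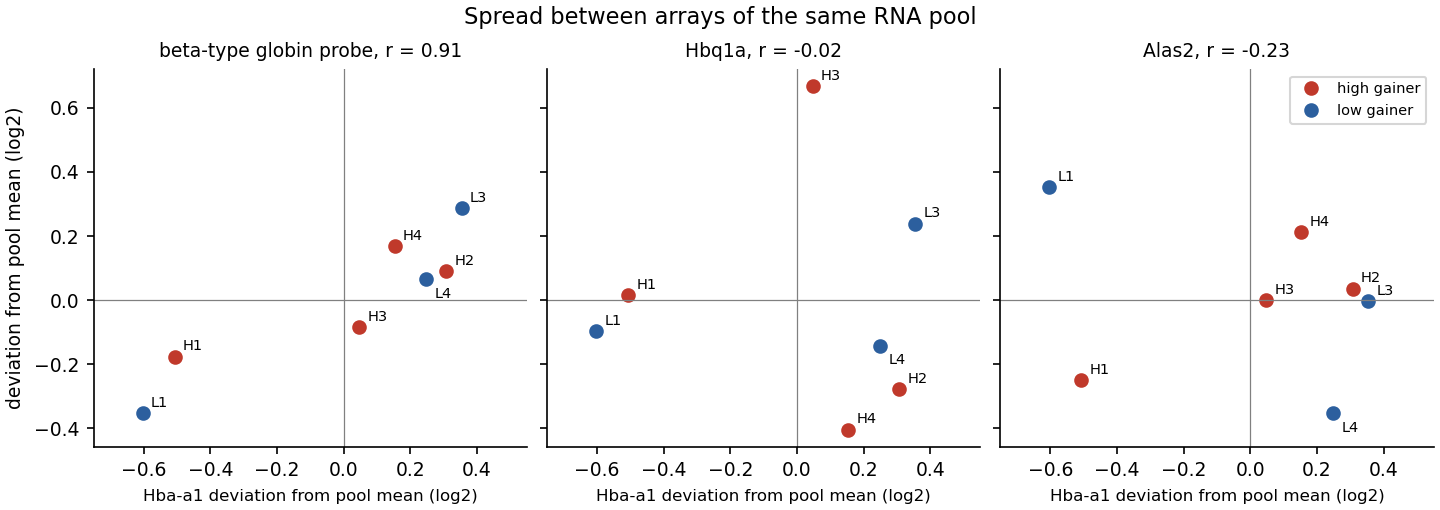
Deviation of the log2 intensity of each array from the mean of its own pool, with Hba-a1 on the horizontal axis and the beta-type globin probe, Hbq1a or Alas2 on the vertical axis. Each point is 1 of 7 arrays. The points of the beta-type globin probe rise with Hba-a1 (r = 0.91), and those of Hbq1a (-0.02) and Alas2 (-0.23) do not.

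The genes most like Hba-a1 over the 7 arrays, by Pearson r of the normalized log2 intensity, were Gstp1, a glutathione transferase (0.988), Endog, a mitochondrial nuclease (0.983), Rpl36, a ribosomal protein (0.982), Uqcr11, a subunit of respiratory complex III (0.981), Lzic (0.978), Dut, which breaks down dUTP (0.976), Acot13, an acyl-CoA thioesterase (0.975), and Stk38l, a kinase (0.971). None of these 8 is a globin or belongs to the red cell lists. Their differences of high gainers minus low gainers were -0.72 to -0.28. In 3 of the 8 the groups did not overlap, beside 2.44% of all probes with high gainers lower. Inside the pools their r with Hba-a1 was 0.926 to 0.994. The 8 were picked by r over these same arrays, so neither value is a further finding. In all, 249 of 11168 probes had an r above 0.9 with Hba-a1. The beta-type globin probe had an r of 0.974, with 20 probes higher, Hbq1a 0.680 with 1388 probes (12.4%) higher, and Alas2 0.167 with 4547 probes (40.7%) higher. The order mixes the gap between the pools with the spread among arrays of a pool.

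**Figure D3:**
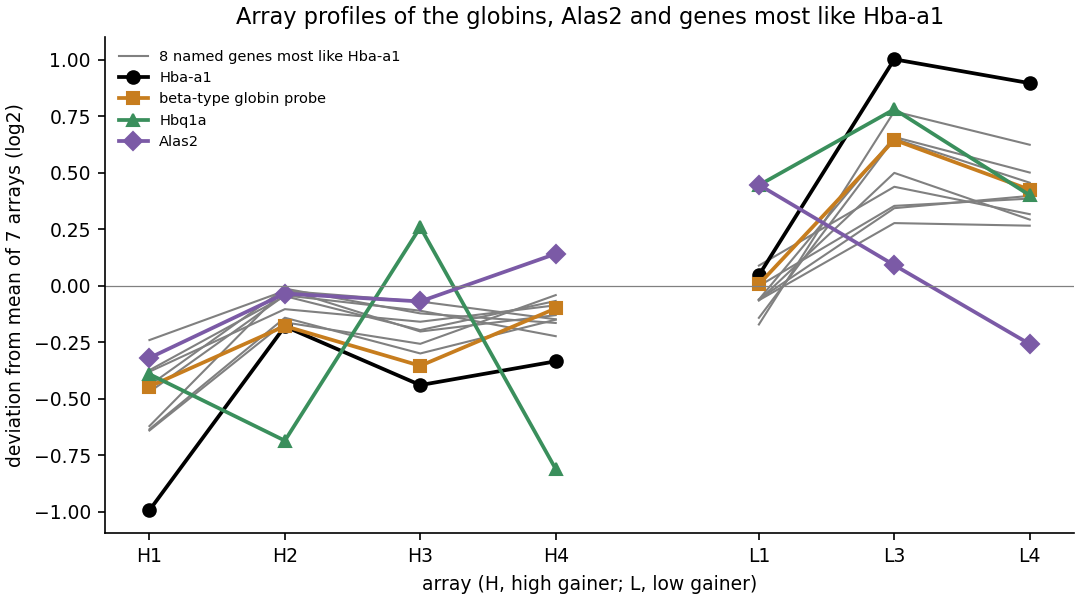
Deviation of normalized log2 intensity from the mean over 7 arrays, for high gainer arrays 1 to 4 on the left and low gainer arrays 1, 3 and 4 on the right, with lines that only join the points of a gene. Hba-a1 and the 8 genes most like it are lowest on high gainer array 1 and high on low gainer arrays 3 and 4, while Hbq1a and Alas2 take other courses.

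The wider red cell programme was followed through lists of genes for haem synthesis, the red cell membrane and its skeleton, red cell enzymes, erythroid regulators and iron handling, together with the remaining globins. Of their 82 genes apart from the 3, 57 had a probe of their own. Of these, 13 had no value on any of the 7 arrays, 17 had values on some, and 27 had values on all and were tested. Of the 27, 17 had a difference below 0 and 10 above, with a median log2 difference of -0.05, beside 50.4% of all 11169 probes below 0 and a median of -0.00. The 27 include genes that other tissues also use, such as Alas1, while Gata1, Klf1, Rhag and Epb42 had no value. Their median therefore says little about red cells alone. In limma's test 0 of the 27 passed an adjusted p of 0.05. Groups that did not overlap were seen in 0 of the 27, beside 2.44% of all probes with high gainers lower and 1.99% higher. With shares this low, that count is not read as a result. At an unadjusted p below 0.05, 2 of the 27 were lower in high gainers (Aqp1 and Car2) and 0 higher, beside 3.41% of all probes lower and 3.07% higher. By the methods' t-test, which pools no spread over probes, 1 gene was, Aqp1. Over all probes the same fit called 3 (0.0269%) higher and 0 (0.0%) lower, so 0.0269% in either direction. The count over all probes was 171 without low gainer array 1, and it stayed at 0 for the 27 red cell genes.

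**Figure D4:**
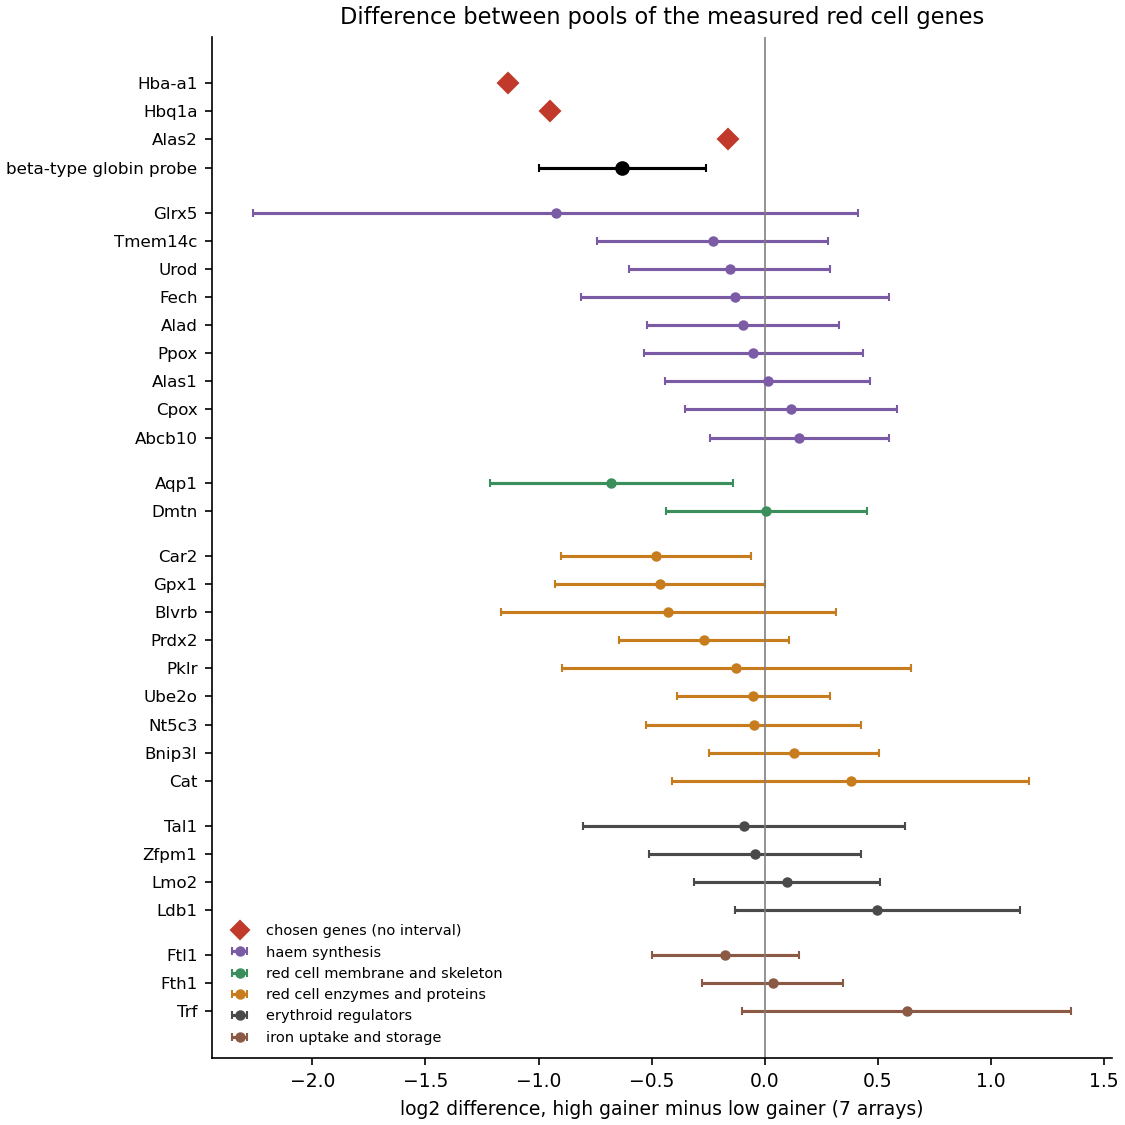
Log2 difference of high gainers minus low gainers for the 3 genes, the beta-type globin probe and the 27 other red cell genes tested, grouped by role. Points are the estimates over 7 arrays, and bars are limma's 95% confidence intervals, drawn for the genes not chosen by this contrast. Most of the other genes lie around 0, and Hba-a1 (-1.14) and Hbq1a (-0.95) have the lowest points.

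Alas2 opens haem synthesis, and the genes of the later steps had no call. Of 9 other genes of the pathway and its transport that were tested, 6 were below 0 and 3 above, with a median of -0.10 and no adjusted p below 0.829. Alas1, the synthase of all other tissues, averaged 2.03 ± 0.256 in high gainers and 2.05 ± 0.621 in low gainers, a log2 difference of 0.01 (95% confidence interval -0.44 to 0.47). Fech, which inserts iron into haem, differed by -0.13 (95% confidence interval -0.81 to 0.55). Alad, Urod, Cpox and Ppox, the enzymes between, lay within -0.15 to 0.12, and Abcb10 and Tmem14c, membrane proteins of the mitochondrion needed for haem synthesis, were at 0.15 and -0.23. Glrx5, an iron-sulphur protein, gave -0.92, but this came from high gainer array 1, which read 0.874 where the other high gainer arrays read 9.25 to 10.2. Slc25a37, the mitochondrial iron importer of red cell precursors, had no value on the 7 arrays.

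Proteins of the red cell membrane, which are among the plainest marks of the cell type, were measured unevenly. Of 15 such genes with a probe, 7 had no value on the 7 arrays (Sptb, Epb42, Rhag, Rhd, Kel, Xk and Ermap), 6 had values on some and 2 on all. Tmod1, a tropomodulin that caps actin filaments, read 0.511 to 0.643 on the 4 high gainer arrays, against 0.423 and 0.456 on the 2 low gainer arrays with a value, with a log2 difference of 0.28 (adjusted p = 0.960, limma) in the fit that admitted probes present on at least 2 arrays of each group. Slc4a1, the band 3 anion exchanger, had a value on 1 high gainer array (0.148) and on 1 low gainer array (0.332), and Ank1, ankyrin of the membrane skeleton, on 3 high gainer arrays (0.130 to 0.251) and 1 low gainer array (0.0841). Aqp1, a water channel of red cells and also of the choroid plexus, averaged 0.489 ± 0.0949 in high gainers and 0.757 ± 0.155 in low gainers, a log2 difference of -0.68 (95% confidence interval -1.22 to -0.14, adjusted p = 0.750, limma). Dmtn, dematin, differed by 0.01. The GATA1 and KLF1 genes, Gata1 and Klf1, had no value on any of the 7 arrays, nor had Lyl1 and Epo. Of the 4 erythroid regulators tested, Ldb1 was at 0.50, Lmo2 at 0.10, Zfpm1 at -0.04 and Tal1 at -0.09, with no adjusted p below 0.793.

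Enzymes of the red cell that other tissues also use were mostly measured on all 7 arrays. Of 9 genes tested 7 were below 0 and 2 above, with a median of -0.13. Car2, a carbonic anhydrase of red cells and also of oligodendrocytes and choroid plexus, averaged 8.04 ± 1.57 in high gainers and 11.2 ± 2.09 in low gainers, a log2 difference of -0.48 (95% confidence interval -0.90 to -0.06, adjusted p = 0.752, limma). The peroxide-clearing enzymes Gpx1 (-0.46), Prdx2 (-0.27) and Cat (0.38) did not pass the test, nor did Blvrb (-0.43), a biliverdin reductase. The remaining ones were Pklr, red cell pyruvate kinase (-0.13), Nt5c3, a nucleotidase (-0.05), Ube2o, a ubiquitin ligase (-0.05), and Bnip3l, which serves the removal of mitochondria (0.13 for its brighter probe). Car1, the carbonic anhydrase found mostly in red cells, had values of 0.0873 to 0.146 on 3 high gainer arrays and of 0.103 and 0.209 on 2 low gainer arrays. In the fit with at least 2 arrays of each group its log2 difference was -0.61 (95% confidence interval -1.52 to 0.31, adjusted p = 0.940, limma). Among genes of iron handling, the ferritin chains Fth1 and Ftl1 were at 0.03 and -0.17 and transferrin (Trf) at 0.63, with no adjusted p below 0.787, and Tfrc, the receptor that takes iron into red cell precursors, had no value.

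**Figure D5:**
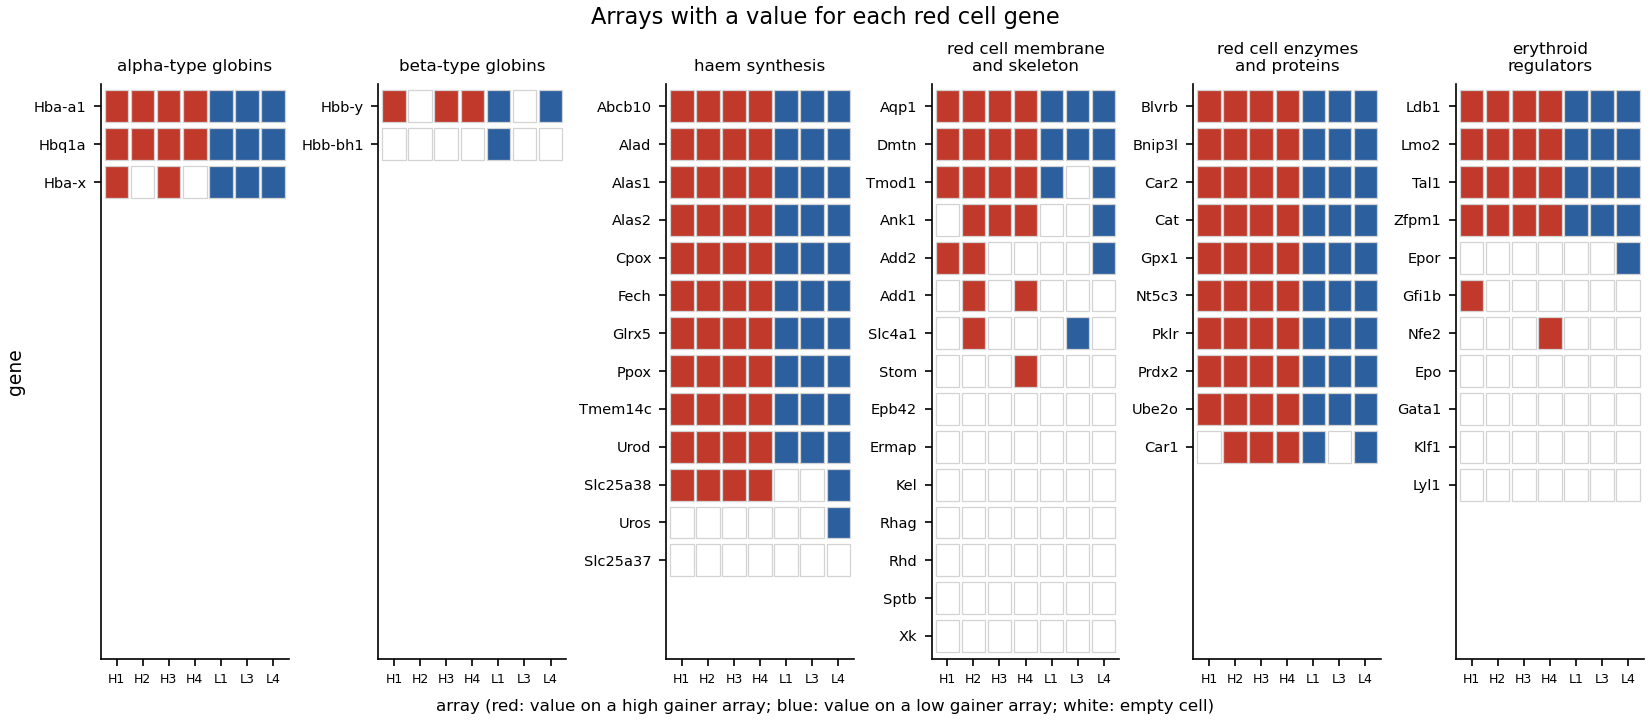
High gainer arrays 1 to 4 (left, red) and low gainer arrays 1, 3 and 4 (right, blue) on which the table holds a value for each gene with a probe, in panels by role, with empty cells in white. Gata1, Klf1, Rhag and Epb42 are among the genes with none, and Hba-a1 and Alas2 are among those with values on all 7.

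Other cells of the blood left few values. Of 9 neutrophil genes with a probe 0 had values on all 7 arrays and 4 had none on any, and of 8 lymphocyte genes 0 and 3. Gp9, the only platelet gene measured on all, differed by -0.09 (adjusted p = 0.968, limma), and Pf4, another platelet gene, had values of 0.193 to 0.521 on 3 high gainer arrays and of 0.212 to 0.420 on 3 low gainer arrays. Vessels carry the blood, and genes of the vessel wall were followed beside it. Of 9 endothelial genes tested 3 were below 0 and 6 above, with a median of 0.14 and no adjusted p below 0.880, and their summed intensity was 15.6 to 19.0 in high gainers and 14.1 to 18.6 in low gainers. In the fit with at least 2 arrays of each group, Pecam1 (-0.55), Ramp2 (-0.57) and Egfl7 (-0.09) of the endothelium were below 0, without a call (lowest adjusted p 0.927, limma). Cldn5, a tight junction protein, was at 0.21, Ly6c1 at -0.19 and Itm2a at 0.13. The 3 mural cell genes tested had a median of 0.38, with Rgs5 at -0.57, Vtn at 0.50 and Kcnj8 at 0.38. Cspg4, another mural cell gene, was at -0.74 (adjusted p = 0.941, limma) in the fit with at least 2 arrays of each group. No gene of haem breakdown passed the test, Hmox2 being at -0.35, Blvra at -0.02 and Hmox1, the inducible haem oxygenase, at -0.04.

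Markers of other cells in or next to the hypothalamus are given beside these values. The 3 anterior pituitary genes tested, of 7 with a probe, were the 3 calls of the whole fit: growth hormone (Gh) was 3.48 higher in high gainers on the log2 scale, the glycoprotein hormone alpha subunit (Cga) 2.89 and prolactin (Prl) 2.67. Of the others, Lhb, the luteinizing hormone beta subunit, differed by -0.06 (adjusted p = 0.994, limma) and Lhx3, a pituitary transcription factor, by 0.23 (adjusted p = 0.975, limma) in the fit with at least 2 arrays of each group. Pomc was measured on all 4 high gainer arrays but 1 low gainer array, and Tshb on 1 high gainer array. The 3 called genes had a summed intensity of 8.30 to 10.4 in high gainers and 0.837 to 1.38 in low gainers. Of 5 oligodendrocyte genes, 5 were above 0, with a median of 0.52. The groups of Mbp and Mag did not overlap, beside 1.99% of all probes with high gainers higher. Those of Cnp (0.52), Cldn11 (0.28) and Mog (0.11) overlapped. The sum was 47.2 to 75.2 in high gainers and 12.4 to 41.4 in low gainers, without a call (lowest adjusted p 0.750, limma). Most of this sum was Mbp, at 42.1 to 66.7 in high gainers and 9.68 to 36.1 in low gainers. The 5 choroid plexus genes, Aqp1 and transthyretin (Ttr, -0.33) among them, were all below 0, with sums of 262 to 302 in high gainers and 290.3 to 397 in low gainers. Nearly all of these sums was Ttr, at 257 to 296 in high gainers and 284 to 391 in low gainers. Neurons (5 genes, median -0.02), astrocytes (4 genes, 0.20) and microglia (4 genes, 0.03) had no call. The part that these other cells had in the lower Hba-a1 and Hbq1a values was not tested.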

How the data were processed

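Hypothalamus RNA of 2 pools, each of 20 mice, was measured on 4 one-colour arrays a pool. The deposited table holds the intensity of each probe, which the authors read from chemiluminescence images and quantile normalized; the array medians still differ in the file. The study's methods called a feature detected by its signal-to-noise ratio and quality flag, and whether this rule left the table's empty cells is not given in the sources used here, nor is the genome build of the probes. Of 33012 probes, 14411 name 1 gene, 247 several, and 18354 are unnamed here. Array groups were taken from the sample labels.

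Log2 intensities of probes measured on all 7 arrays were quantile normalized again and fitted with limma 3.58.1 in R 4.3.3 (lmFit, eBayes with a trend), with Benjamini-Hochberg adjustment over all 11169 probes. For a gene with several probes the brightest was used. The scripts were tested on simulated data. The number of arrays limits the precision of all values. The members and lists were chosen with earlier results of these data known. Named genes were the members, other globins with a probe, in each red cell list up to 6 of the brightest and up to 4 of the smallest p, in other lists up to 3 of the brightest and any past the threshold, and the 8 most like Hba-a1. Genes outside this rule were named after their values were seen. In the red cell lists these were Alad, Fech, Slc4a1, Ank1, Tmod1, Car1, Cat and Pklr. In the other lists they were Pf4, Pecam1, Ramp2, Egfl7, Cspg4, Mag, Cnp, Lhb, Lhx3, Pomc and Tshb. The peptide genes and those with no value also stood outside the rule, and Aqp1 stands in 2 lists. Alternatives were other normalizations, a pseudocount (0.186), other probe filters, no trend, all 8 arrays, a replicate block, an ordinary t-test and leaving out each array.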

Additional observations from a re-analysis of the deposited data

Results flagged for a closer look

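In 5 of 47 groups of 4 arrays 1 array lay far from the other 3. Chance alone flags about 1 group in 20 among independent groups, but these share the same arrays, so the count is not set against it. Of the 5 flags, 4 were low gainer array 2, which had already been set apart. Its correlation with the other arrays was 0.239 where those of low gainer arrays 1, 3 and 4 were 0.971 to 0.985. It read 0.201 for the brighter probe of Bnip3l (mean of the other low gainer arrays 13.4), 0.545 for Ppox (1.75 to 1.81) and 1.66 for Ube2o (4.23 to 4.53). High gainer array 1 read 0.874 for Glrx5, where the other high gainer arrays read 9.25 to 10.2.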

How the results depend on the processing

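The difference of Hba-a1 was -1.43 to -0.93 and that of Hbq1a -1.18 to -0.73 under the 17 and 15 alternatives that gave a value. Both genes were chosen by this gap and their groups did not overlap. Their sign could therefore hardly turn, and nothing is read from its staying below 0. Hbq1a could not be measured with all 8 arrays or with the brightest 50% of probes. Alas2 ranged from -0.38 to 0.02. The beta-type globin probe ranged from -0.81 to -0.48, and the median of the other red cell genes from -0.10 to 0.16, with 0 calls among them in all 17 alternatives. The r of Hba-a1 and Alas2 inside the pools ranged from -0.755 to 0.743 when single arrays were left out, that of Hba-a1 and Hbq1a from -0.20 to 0.13, and that of Hbq1a and Alas2 from -0.46 to 0.07.

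Calls over all probes numbered 3, against 1 with the brightest 50% of probes, 1 with all 8 arrays and 0 by an ordinary t-test. They numbered 2 to 171 when single arrays were left out, the cause of which was not tested. Among the other blood, vessel and brain lists they numbered 3, against 1, 1 and 0, and 2 to 3 with single arrays left out. With the replicate number as a block the calls over all probes were 9 and the difference of Hba-a1 was -1.24. Arrays of the same number did not deviate together (r of -0.20, 0.13 and -0.14). Between arrays of different numbers r reached 0.45 (high gainer array 3 with low gainer array 1) and -0.52 (high gainer array 3 with low gainer array 4). Whether a number marks a shared step of the array work cannot be told from these values. Alternatives for the beta-type globin probe, the red cell median and the other lists were chosen after seeing the data. Empty cells limit what can be said of genes without values.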
